A study of Homo sapiens with 12 samples.

Results

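POLR2J, GPR89 and EIF3C are 3 families of human genes that exist in near-identical copies, and reads from one copy can match another. The genes described here are the 7 listed copies POLR2J, POLR2J2, POLR2J3, GPR89A, GPR89B, EIF3C and EIF3CL. They were selected on the cisplatin against DMSO counts of POLR2J3, GPR89A and EIF3C, which changed in these same libraries, so the cisplatin values of these 3 genes are given as descriptions, without a test. Of the 7 copies, 6 had an entry among the 17508 genes of the count table, and 5 had an exon count above 0 in any library. EIF3CL was not analysed here, so the EIF3C family rests on EIF3C alone. POLR2J3 stands for 2 annotated genes, of which ENSG00000285437 was counted and ENSG00000168255 was not analysed here.

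The libraries came from TYK-nu, a cell line derived from a high-grade serous ovarian adenocarcinoma. Cells received 15 µM cisplatin, a platinum compound that cross-links DNA, or its solvent control DMSO, for 24 h or 72 h. Each of the 4 groups held 3 libraries of poly(A)-selected RNA, and every cell was of this 1 line, with no other genotype or agent. Per the study's methods the cells were grown in triplicate, and p-values measure the spread between these 3 cultures of 1 line. The libraries held 17341818 to 63913081 exon counts and 1185012 to 4840181 intron counts. Of the markers of serous ovarian lines, KRT18 ranged from 133 to 179.7 exon CPM (counts per exon total of the library, without TMM scaling) and WT1 from 1.58 to 4.16, KRT8 and EPCAM were detected, MUC16 and MSLN were not analysed here, and PAX8 was at or near 0 (at most 2 counts in a library). Of the markers of other cells, PTPRC and HBB were at 0 and ALB reached at most 3 counts, CD3E at most 45 counts, and PECAM1, which marks endothelial cells, had 1357 to 2484 exon CPM, so that marker went against its name in this line.

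POLR2J encodes a small subunit of RNA polymerase II, the enzyme that transcribes protein-coding genes, and POLR2J2 and POLR2J3 are younger copies of it. GPR89A and GPR89B encode a Golgi membrane protein, also called the Golgi pH regulator, which acts as an anion channel that helps acidify the Golgi lumen. EIF3C and EIF3CL encode a core subunit of eIF3, the large complex that brings the small ribosomal subunit to messenger RNA. Recently duplicated genes of this kind keep long stretches of identical sequence, and counting programs treat a read that matches several copies in different ways. How the deposited counts treated such reads is not given in the sources used here.

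The 3 POLR2J copies lie on the minus strand of chromosome 7 (GRCh38), at chr7:102473128-102478922 for POLR2J, chr7:102562133-102572583 for POLR2J3 and chr7:102665368-102671663 for POLR2J2. The last 300 coding bases of their reference transcripts (GENCODE release 44, stop codon left out) are printed next, because they show where a read could tell the copies apart. Capitals mark bases at which a copy differs from, or has no counterpart in, at least 1 of the other 2.
POLR2J: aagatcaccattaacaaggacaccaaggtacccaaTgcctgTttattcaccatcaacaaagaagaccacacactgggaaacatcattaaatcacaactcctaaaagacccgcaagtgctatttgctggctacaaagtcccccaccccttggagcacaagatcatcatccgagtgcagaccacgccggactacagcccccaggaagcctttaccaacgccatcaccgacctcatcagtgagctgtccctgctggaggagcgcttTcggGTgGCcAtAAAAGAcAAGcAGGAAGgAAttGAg
POLR2J2: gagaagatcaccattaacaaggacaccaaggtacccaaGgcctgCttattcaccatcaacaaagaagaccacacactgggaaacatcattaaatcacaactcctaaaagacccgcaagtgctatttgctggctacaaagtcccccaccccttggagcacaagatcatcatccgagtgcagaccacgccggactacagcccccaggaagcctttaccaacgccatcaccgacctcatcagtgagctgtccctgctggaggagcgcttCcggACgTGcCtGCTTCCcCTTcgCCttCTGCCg
POLR2J3: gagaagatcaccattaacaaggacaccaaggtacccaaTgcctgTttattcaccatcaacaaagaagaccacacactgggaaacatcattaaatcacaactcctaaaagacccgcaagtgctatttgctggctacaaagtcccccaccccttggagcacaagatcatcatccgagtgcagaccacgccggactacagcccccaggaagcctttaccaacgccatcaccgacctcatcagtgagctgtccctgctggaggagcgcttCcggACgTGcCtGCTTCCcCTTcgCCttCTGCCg
POLR2J2 and POLR2J3 differed at only 2 of 345 coding bases (99.4% identity), namely G84T and C90T, both in the stretch shown and written as the base of POLR2J2, the position from the start codon and the base of POLR2J3. POLR2J shared 94.4% of 342 aligned coding bases with POLR2J3 and 93.9% with POLR2J2. In POLR2J, 24 of the 27 capitals fall in the 33 coding bases of exon 4, and the earlier exons shown are nearly the same in all copies. The stretches span chr7:102473652-102478809 for POLR2J, chr7:102666134-102671556 for POLR2J2 and chr7:102567054-102572476 for POLR2J3.

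GPR89A lies on the plus strand at chr1:145607988-145670650 and GPR89B on the plus strand at chr1:147928393-147993592. Their coding sequences, of 1365 bases each in 14 exons, differed at a single base (99.9% identity), C12G, written with the GPR89A base first. The first 90 coding bases, which span exons 1 and 2, show that difference in capitals (chr1:145608134-145616281 and chr1:147928537-147936674).
GPR89A: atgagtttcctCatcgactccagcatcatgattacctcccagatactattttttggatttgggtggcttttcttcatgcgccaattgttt
GPR89B: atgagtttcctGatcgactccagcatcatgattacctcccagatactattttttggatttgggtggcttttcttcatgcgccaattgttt
EIF3C lies on the plus strand at chr16:28688558-28735727 and EIF3CL on the minus strand at chr16:28379579-28403841. The 2739 coding bases of EIF3C matched EIF3CL without a mismatch, and EIF3CL held 3 further bases, shown in capitals because they are the only coding difference.
EIF3C: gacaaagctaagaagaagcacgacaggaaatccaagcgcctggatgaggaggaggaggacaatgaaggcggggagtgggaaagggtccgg
EIF3CL: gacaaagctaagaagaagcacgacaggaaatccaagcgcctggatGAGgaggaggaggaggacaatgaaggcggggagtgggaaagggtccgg
The printed stretch of EIF3C is chr16:28723213-28723302 and that of EIF3CL is chr16:28392001-28392093.

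To see how much of each gene a single read of 100 bases could not place, every 100-base window was searched for in the rest of the genome and in the transcripts of other genes. Per the study's methods the reads came in pairs, so a mate in unique sequence could place a read whose own bases are shared. In POLR2J, 13.1% of exon windows and 52.9% of intron windows occurred elsewhere. In POLR2J3 the shares were 82.1% of exon windows and 87.2% of intron windows, and in POLR2J2 93.1% and 89.4%. POLR2J was the copy with the smallest shared part of its exons. GPR89A had 58.2% of exon and 47.2% of intron windows elsewhere, GPR89B 50.6% and 46.0%, and EIF3C 94.7% and 84.2%. In the spliced coding sequence the shares were 84.1% for POLR2J, 100% for POLR2J2 and POLR2J3, 99.1% for each GPR89 copy and 96.8% for EIF3C. The POLR2J3 share counts transcripts of its second gene, which overlaps it, and was 81.3% without them. For POLR2J2 the share likewise counts ENSG00000267645, which overlaps that copy. The GPR89 copies shared windows only with each other among spliced transcripts, whereas those of POLR2J3 occurred in transcripts of POLR2J2, POLR2J, POLR2J4 and unnamed loci such as ENSG00000267645, besides its second gene.

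**Figure D1:**
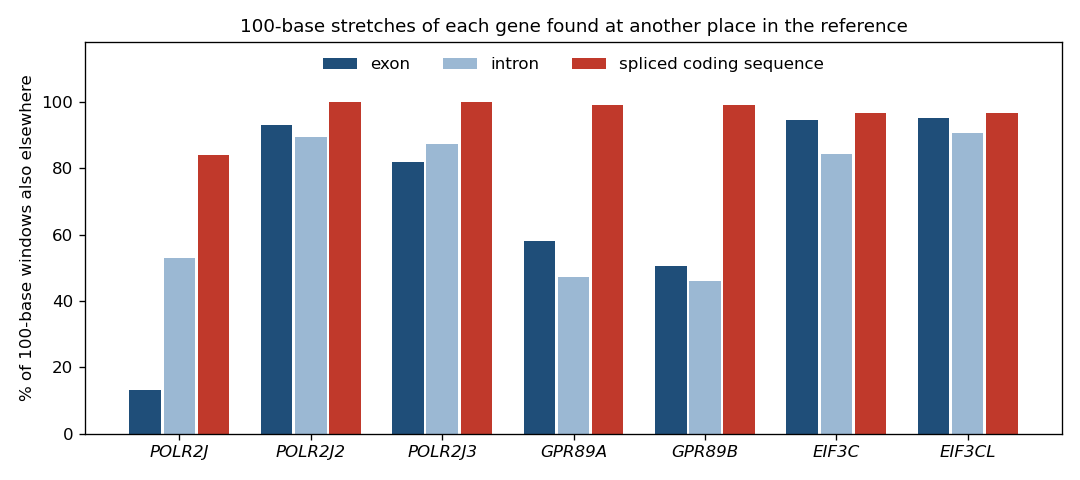
Percentage of 100-base windows of each gene that also occur elsewhere in the reference, for exons (dark blue), introns (light blue) and the spliced coding sequence (red). POLR2J has the lowest exon bar (13.1%), and the coding bars of all copies reach 84.1% or more. The coding bar of POLR2J3 counts transcripts of its overlapping second gene, and the share is 81.3% without them.

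Overlapping genes touch some of these counts as well. POLR2J overlaps LRWD1 on the opposite strand, and POLR2J3 overlaps the second POLR2J3 gene and ENSG00000270249 on its own strand and SPDYE2 on the opposite strand. POLR2J2 overlaps the protein-coding ENSG00000267645 and the long non-coding ENSG00000279168 on its own strand. EIF3C overlaps the microRNA gene MIR6862-2 on its own strand and the pseudogenes CDC37P1 and PLA2G10DP on the opposite one. Per the study's methods, HTSeq ran in intersection-strict mode for exons, where a fragment must lie wholly within the features of a single gene, and in union mode for introns, where a fragment that touches several genes is ambiguous. The libraries were made with a kit that marks strand, but whether the counting used strand is not given in the sources used here, so reads from such partners may not have been told apart.

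Cisplatin against DMSO asks which genes respond to the drug, and 72 h against 24 h asks what changes with time in culture. The 4 comparisons share libraries, because each group enters 1 cisplatin and 1 time comparison. Levels are given as CPM after TMM (trimmed mean of M values) scaling, separately for exon and intron counts. A gene is said to have passed when the edgeR quasi-likelihood test, adjusted over all genes by Benjamini-Hochberg, fell below 0.05. The time comparisons of POLR2J3, GPR89A and EIF3C use the same libraries on which these genes were chosen, so those values are also given without a test. Because the libraries are bulk, fewer cells with a transcript and less of it per cell cannot be told apart.

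**Figure D2:**
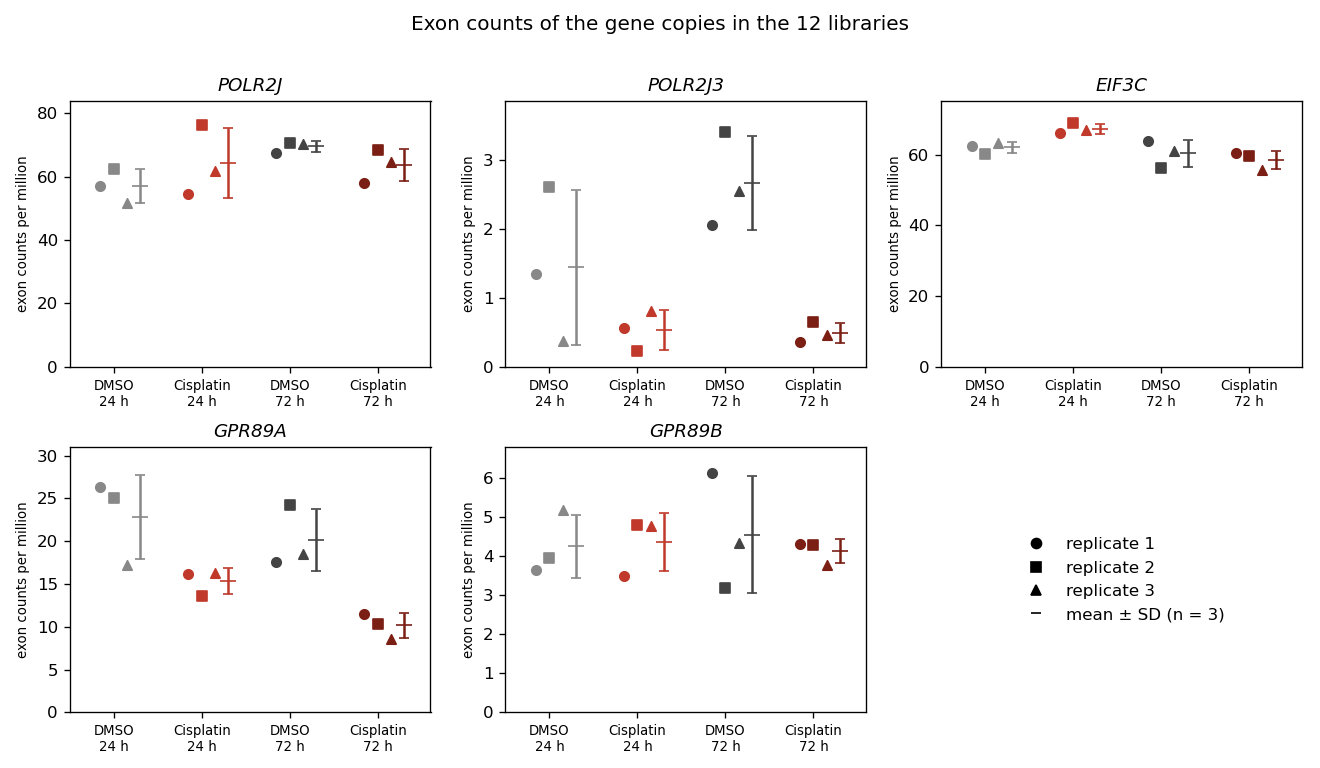
Exon CPM (vertical axis, starting at 0) of the 5 copies with exon counts in the 12 libraries, by group, with the mean and SD (n = 3) beside the points. POLR2J3 and GPR89A are lowest in the cisplatin groups and in replicate 3 of DMSO at 24 h, while the DMSO and cisplatin groups of POLR2J and GPR89B overlap at both times.

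POLR2J, the established polymerase subunit gene, carried nearly all exon counts of its family. Its level in DMSO at 24 h was 57.1, 62.5 and 51.7 CPM in replicates 1, 2 and 3, and with cisplatin at 24 h it was 54.5, 76.3 and 61.9. At 72 h it was 67.5, 70.7 and 70.4 in DMSO and 58.1, 68.3 and 64.6 with cisplatin. The order of the group means was DMSO at 24 h (57.1 ± 5.37, SD, n = 3), cisplatin at 72 h (63.7 ± 5.17), cisplatin at 24 h (64.2 ± 11.1) and DMSO at 72 h (69.5 ± 1.80), and neighbours in this order overlapped library by library. With cisplatin at 24 h the exon counts of POLR2J differed by 0.17 on the log2 scale (standard error 0.09), with overlapping groups, and did not pass. Without cisplatin replicate 2, the highest library, the 24 h value of POLR2J was 0.02, and without cisplatin replicate 1 it was 0.28. No gene passed in that comparison (0 of 10444, 0.0%, by edgeR and 0 by DESeq2, with 260 and 245 at an unadjusted p under 0.05). The 72 h difference was -0.13 on that scale (standard error 0.09), again with overlapping groups.

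POLR2J rose with time in DMSO, by 0.28 on the log2 scale (standard error 0.09, adjusted p = 0.00946 from edgeR), and its 3 libraries at 72 h were all above those at 24 h, while 67.4% of all genes had groups that did not overlap. GPR89B did not pass in this comparison, in which 65.1% of all 10444 genes passed. Without DMSO replicate 3 at 24 h the change was 0.22 and the adjusted p from edgeR was 0.0524. In cisplatin the log2 change with time was -0.02 (standard error 0.09) and did not pass.

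POLR2J3 had few exon counts, so single libraries weigh heavily. It had 35, 75 and 7 exon counts in DMSO at 24 h and 13, 8 and 14 with cisplatin. At 72 h it had 52, 90 and 107 in DMSO and 17, 42 and 14 with cisplatin. In CPM these were 1.34, 2.62 and 0.377 in DMSO and 0.568, 0.235 and 0.817 with cisplatin at 24 h, and 2.06, 3.41 and 2.56 in DMSO and 0.362, 0.655 and 0.469 with cisplatin at 72 h. All cisplatin libraries lay below all DMSO libraries at 72 h, as did those of GPR89A (18.1% of all genes had groups that did not overlap there), but at 24 h DMSO replicate 3 lay among the cisplatin libraries. On the log2 scale POLR2J3 differed with cisplatin by -1.66 (standard error 0.50) in the earlier and by -2.38 (standard error 0.39) in the later comparison. In the later one 3 genes, 0.0287% of 10444, passed over the whole table, and POLR2J3 and GPR89A were chosen from that very comparison. Without DMSO replicate 3 the 24 h change of POLR2J3 was -2.03, and without DMSO replicate 2 it was -0.91.

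With time, POLR2J3 exon counts differed on the log2 scale by 0.80 in DMSO (standard error 0.37) and by 0.07 in cisplatin (standard error 0.54). Single libraries moved the DMSO value, which was 1.54 without DMSO replicate 2 at 24 h and 0.42 without DMSO replicate 3 at 24 h.

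POLR2J2 had 0 exon counts in all 12 libraries, although its coding sequence is nearly that of POLR2J3. A count of 0 allows up to 3 counts, or 0.0469 to 0.173 CPM of the unscaled exon total depending on the library. As POLR2J2 had 4 to 30 intron counts in the same libraries, its place in the table was not empty. Fewer transcripts of POLR2J2 and reads not assigned to it, also where the 2 genes on its strand overlap it, cannot be told apart in these counts.

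GPR89A carried most of the exon counts of the Golgi pH regulator. It had 26.3, 25.0 and 17.2 CPM in DMSO at 24 h and 16.2, 13.6 and 16.3 with cisplatin. The 72 h values were 17.6, 24.3 and 18.5 in DMSO and 11.5, 10.4 and 8.62 with cisplatin. The cisplatin libraries were all below the DMSO libraries at both times, where 6.42% (24 h) and 18.1% (72 h) of all genes had groups that did not overlap. The group means ran from 10.2 ± 1.46 (SD, n = 3) with cisplatin at 72 h through 15.4 ± 1.55 with cisplatin at 24 h and 20.1 ± 3.63 in DMSO at 72 h to 22.9 ± 4.91 in DMSO at 24 h, and among neighbours in this order only the 2 DMSO groups overlapped. GPR89A differed with cisplatin by -0.60 on the log2 scale at 24 h and by -0.97 at 72 h, with a standard error of 0.14 each time. As with POLR2J3, DMSO replicate 3 at 24 h was the lowest DMSO library of that time, and without it the 24 h change of GPR89A was -0.75. That library had 18610268 exon counts, fewer than the other DMSO libraries, and an intron share of 6.67% within the range of all libraries (6.26% to 7.15% at 24 h), and its part in the result was not tested.

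GPR89B, whose coding sequence differs from GPR89A at 1 base, did not follow it. It had 3.64, 3.94 and 5.17 CPM in DMSO and 3.50, 4.81 and 4.79 with cisplatin at 24 h. At 72 h the gene had 6.14, 3.18 and 4.33 in DMSO and 4.32, 4.29 and 3.79 with cisplatin. The groups overlapped at both times, and the group means lay between 4.13 ± 0.298 and 4.55 ± 1.49 (SD, n = 3). The log2 change with cisplatin was 0.06 at 24 h (standard error 0.20) and -0.12 at 72 h (standard error 0.18), and neither passed. Without DMSO replicate 1 the 72 h value of GPR89B was 0.12. With time it differed by 0.11 (standard error 0.20) in DMSO and by -0.07 (standard error 0.19) in cisplatin, and neither passed.

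With time in cisplatin, the log2 difference of GPR89A was -0.57 (standard error 0.14). Its libraries at 72 h were all below those at 24 h, where 67.2% of all genes had groups that did not overlap. In DMSO the difference of GPR89A with time was -0.20 (standard error 0.13). These effects differed by -0.37 (standard error 0.20), which equals the difference between the cisplatin effects at the 2 times. Neither POLR2J nor GPR89B passed with time in cisplatin, where 63.5% of all 10444 genes passed.

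On the log2 scale EIF3C had the smallest SD of exon CPM over the 12 libraries among the 5 copies with exon counts (0.0940). The gene had 62.6, 60.3 and 63.4 CPM in DMSO and 66.0, 68.9 and 67.1 with cisplatin at 24 h. The 72 h libraries gave 63.9, 56.2 and 60.9 in DMSO and 60.5, 59.6 and 55.7 with cisplatin. The groups did not overlap at 24 h, where cisplatin was higher (6.42% of all genes had groups that did not overlap in exon CPM there), and they overlapped at 72 h. EIF3C differed with cisplatin by 0.12 on the log2 scale at 24 h and by -0.04 at 72 h, each with a standard error of 0.06. With time EIF3C differed by -0.20 in cisplatin and by -0.04 in DMSO, each with a standard error of 0.06. Since EIF3CL has no counts here, reads of EIF3CL counted under EIF3C cannot be told apart from reads of EIF3C.

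Levels between genes are comparable only per length. Per kilobase of annotated exon, the group means of POLR2J ran from 60.9 to 74.2 CPM and those of EIF3C from 8.47 to 9.72. Those of GPR89A ran from 1.83 to 4.11, those of GPR89B from 0.792 to 0.873 and those of POLR2J3 from 0.0729 to 0.394. These ranges did not overlap, so on this scale the order POLR2J, EIF3C, GPR89A, GPR89B, POLR2J3 was the same in every group. The length takes in all annotated exons of a gene (6795 bases in POLR2J3, 5214 in GPR89B). Their reference transcripts are shorter, with 396 and 2061 windows of 100 bases, and an order by transcript length was not tested. The order given is one of assigned counts, in which the copies with more shared windows may lack more reads.

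The sum over the copies of a family does not depend on which copy a counted read was given to, though reads given to no copy are missing from it. For GPR89 the sum moved with GPR89A. At 72 h the mean of GPR89A differed with cisplatin by -9.95 CPM and that of GPR89B by -0.42, so the sum went from 24.7 ± 2.45 in DMSO to 14.3 ± 1.74 (SD, n = 3) with cisplatin. At 24 h the differences were -7.50 for GPR89A and 0.11 for GPR89B, and the sum went from 27.1 ± 4.10 to 19.7 ± 1.37. On the log2 scale the GPR89 sum differed with cisplatin by -0.47 (standard error 0.11) in the earlier and -0.77 (standard error 0.10) in the later comparison. The sum includes the copy that was chosen, so these values carry no test (0.0% of 10442 genes and sums passed at 24 h and 0.0192% at 72 h). With time in cisplatin the GPR89 sum differed by -0.45 (standard error 0.11), again without a test (63.6% of 10442 genes and sums passed there).

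In the POLR2J sum both POLR2J and POLR2J3 contributed at 72 h, where POLR2J3 differed with cisplatin by -2.18 CPM and POLR2J by -5.84. At 24 h POLR2J3 differed by -0.91 and POLR2J by 7.14, with an SD of 11.1 in the cisplatin group of POLR2J, so the difference in POLR2J3 was smaller than the spread of POLR2J. The POLR2J sum differed with cisplatin by 0.15 at 24 h and by -0.17 at 72 h on the log2 scale, with a standard error of 0.09 each time, and at 72 h its cisplatin libraries were all below its DMSO libraries, as were those of POLR2J3 but not those of POLR2J (18.1% of all genes had groups that did not overlap). With time in DMSO the sum differed by 0.30 (standard error 0.09), beside 0.28 for POLR2J alone.

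**Figure D3:**
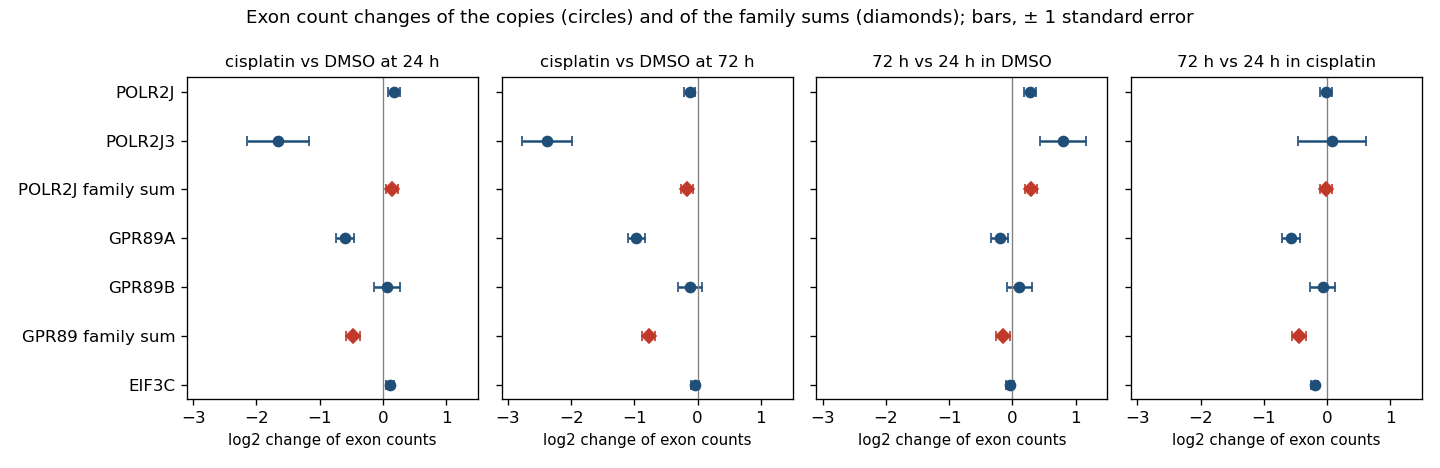
Log2 change of exon counts (horizontal axis) with 1 standard error for each copy (blue circles) and family sum (red diamonds) in the 4 comparisons. The GPR89 sum follows GPR89A to the left of 0 with cisplatin, and the POLR2J sum stays near POLR2J while POLR2J3 lies at -1.66 and -2.38.

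The share of each copy in its family is a scale without library size. GPR89A made up 87.8%, 86.4% and 76.9% of GPR89 exon counts in DMSO at 24 h and 82.2%, 73.8% and 77.3% with cisplatin. At 72 h it made up 74.1%, 88.4% and 81.1% in DMSO and 72.7%, 70.8% and 69.5% with cisplatin. The mean share was 83.7 ± 5.93% and 77.8 ± 4.21% at 24 h and 81.2 ± 7.16% and 71.0 ± 1.64% at 72 h (DMSO and cisplatin, SD, n = 3). The 95% Wilson interval of a single library, which covers counting error only, was 85.9% to 90.5% for the highest DMSO library at 72 h and 70.4% to 77.4% for the lowest, so DMSO libraries differed by more than counting error. With time in cisplatin the share of GPR89A differed by -6.82 percentage points.

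POLR2J3 made up 2.30%, 4.02% and 0.724% of POLR2J family exon counts in DMSO and 1.03%, 0.307% and 1.30% with cisplatin at 24 h. At 72 h it made up 2.96%, 4.60% and 3.51% in DMSO and 0.619%, 0.950% and 0.721% with cisplatin. The cisplatin libraries were all below the DMSO libraries at 72 h, and at 24 h DMSO replicate 3 lay among them. Counting error alone left wide intervals, from 0.351% to 1.49% for DMSO replicate 3 and from 1.66% to 3.18% for DMSO replicate 1 at 24 h.

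**Figure D4:**
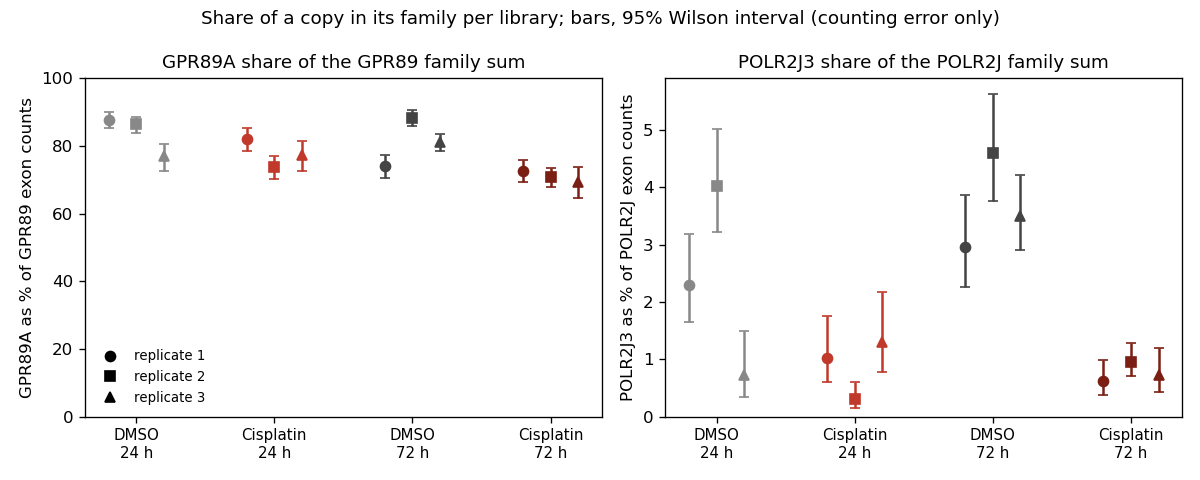
GPR89A as a percentage of GPR89 exon counts (left) and POLR2J3 as a percentage of POLR2J family exon counts (right) in each library, with 95% Wilson intervals that cover counting error only. In the left panel the 3 cisplatin libraries at 72 h sit between 69.5% and 72.7%, and in the right panel they sit below 1%, as do some libraries at 24 h.

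Whether copies move together was also asked library by library, after the group means had been taken out so that the drug and time effects do not enter. Over the 12 libraries, the deviations of GPR89A and GPR89B gave Pearson r = -0.64 (permutation p = 0.0812, 0.447 after Benjamini-Hochberg adjustment over 11 relations) and Spearman rho = -0.59 (permutation p = 0.110). Without the 2 libraries farthest from the median in GPR89A, r was -0.73. No positive relation between the GPR89 copies was seen, and the negative one did not pass. For POLR2J and POLR2J3, r was 0.14 (permutation p = 0.716) and rho 0.34 (permutation p = 0.403). Without the 2 farthest libraries, replicates 1 and 2 of cisplatin at 24 h, r was 0.79, so this value depends on them. With the group means left in, r over the 12 libraries was -0.19 for the GPR89 copies and 0.25 for POLR2J and POLR2J3.

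POLR2J3 and GPR89A gave r = 0.71 and rho = 0.59 in the deviations, and r = 0.53 without the 2 farthest libraries, both of DMSO at 24 h. This pair was picked after its values were seen, so it carries no test, and the low DMSO replicate 3 at 24 h is shared by both. With the group means left in, r was 0.70, and GPR89A ranked 40 of 10443 genes by likeness to POLR2J3. Both genes were chosen for their change with cisplatin in these libraries, so this r and rank follow in part from that choice.

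The genes whose exon log2 CPM were most like those of POLR2J3 over the 12 libraries were B9D2 (r = 0.91), ACTR8 (r = 0.81) and RABEPK (r = 0.80), while its own copy POLR2J ranked 2826. For GPR89A they were FBXO22 (r = 0.92), NTAQ1 (r = 0.89) and TMEM183A (r = 0.88), and its copy GPR89B ranked 6421 with r = -0.19. For EIF3C they were CDK11B (r = 0.89), MOB3A (r = 0.88) and FAM89A (r = 0.87). CDK11B is itself a member of a near-identical gene pair. Pearson r leaves out the size of a change. At 72 h B9D2, ACTR8 and RABEPK differed with cisplatin by -0.27, -0.13 and -0.15 on the log2 scale, beside -2.38 for POLR2J3. FBXO22, NTAQ1 and TMEM183A differed by -0.11, -0.27 and -0.14, beside -0.97 for GPR89A. The values of r come from the same 12 libraries as the changes above and describe likeness only.

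Intron counts come largely from RNA that has not been spliced. In the deviations from group means the exon and intron counts of POLR2J gave r = 0.52 (permutation p = 0.161, 0.590 after Benjamini-Hochberg adjustment over 11 relations) and rho = 0.39 (permutation p = 0.293), and r = 0.23 without the 2 farthest libraries. For the other 4 copies with exon counts r lay between -0.19 (EIF3C) and 0.41 (GPR89A), and none of these relations passed. GPR89A had 30.1, 19.3 and 19.8 intron CPM in DMSO and 21.1, 23.1 and 32.1 with cisplatin at 24 h. At 72 h it had 27.5, 27.0 and 27.7 in DMSO and 21.2, 20.4 and 18.8 with cisplatin, so the groups overlapped at 24 h and did not at 72 h, as in 13.4% of genes. On the log2 scale its intron counts differed by 0.10 (standard error 0.24) and -0.44 (standard error 0.22). Of the copies that were not chosen on these comparisons, POLR2J, POLR2J2 and GPR89B did not pass in intron counts with cisplatin by edgeR, where 0.0208% of 9618 genes passed at 24 h and 0.0416% at 72 h. GPR89B intron counts differed by -0.19 (standard error 0.25; the edgeR adjusted p was 0.988) at 24 h and by 0.17 (standard error 0.23) at 72 h, with overlapping groups both times.

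POLR2J3 had 14.8, 22.3 and 9.89 intron CPM in DMSO and 11.4, 14.4 and 7.42 with cisplatin at 24 h. The 72 h values were 16.4, 26.4 and 18.1 in DMSO and 17.9, 23.2 and 25.0 with cisplatin. The groups overlapped at both times, and at 72 h the log2 change of its intron counts was 0.12 (standard error 0.26) beside -2.38 in its exon counts. With time in cisplatin the POLR2J3 intron counts differed by 0.90 (standard error 0.28), and all its libraries at 72 h were above those at 24 h, where 42.2% of genes had groups that did not overlap. POLR2J, POLR2J2 and GPR89B did not pass there by edgeR, beside 31.8% of 9618 genes. At most 108 intron counts stood behind a POLR2J3 value.

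POLR2J2 had 2.83 to 9.74 intron CPM over the 12 libraries, and its groups overlapped in every comparison. Its log2 change with cisplatin at 24 h was -0.05 (standard error 0.45, adjusted p = 0.995 from edgeR). The deviations of the intron counts of POLR2J2 and POLR2J3 from their group means gave r = 0.83 (permutation p = 0.0267, 0.294 after Benjamini-Hochberg adjustment over 11 relations) and rho = 0.75 (permutation p = 0.0436, 0.479 adjusted), so this relation did not pass. As 89.4% and 87.2% of their intron windows occur elsewhere, the part of shared reads in these values was not tested. POLR2J intron counts differed by 0.38 (standard error 0.22; the edgeR adjusted p was 0.944) with cisplatin at 24 h, where its cisplatin libraries were all above its DMSO libraries (8.94% of genes had groups that did not overlap). Without cisplatin replicate 2 this POLR2J value was 0.17.

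EIF3C intron counts had a larger SD on the log2 scale over the 12 libraries (0.589) than its exon counts (0.0940). They were 14.3, 16.8 and 15.5 CPM in DMSO and 28.0, 22.0 and 24.7 with cisplatin at 24 h. At 72 h they were 42.8, 47.3 and 18.1 in DMSO and 17.3, 15.7 and 14.7 with cisplatin. The cisplatin libraries were thus all above the DMSO libraries at 24 h and all below them at 72 h, beside 8.94% and 13.4% of genes with groups that did not overlap. The log2 changes were 0.67 (standard error 0.28) and -1.13 (standard error 0.25). The spread was uneven, since DMSO replicate 3 at 72 h lay close to the cisplatin libraries, and without it the 72 h change of EIF3C was -1.49, whereas without DMSO replicate 2 it was -0.87. With time the intron counts of EIF3C differed by 1.17 in DMSO (standard error 0.27) and by -0.63 in cisplatin (standard error 0.26). The high DMSO libraries at 72 h enter both this time difference and the cisplatin difference on which EIF3C was chosen, so no test is given. POLR2J, POLR2J2 and GPR89B did not pass in intron counts with time in DMSO by edgeR, beside 33.4% of 9618 genes. POLR2J differed by 0.48 there (standard error 0.22, adjusted p = 0.0777 from edgeR), and without DMSO replicate 2 at 72 h by 0.60 (adjusted p = 0.0465 from edgeR). The EIF3C groups did not overlap there, as in 43.1% of genes. Only 22 to 86 intron counts a library stood behind these EIF3C values, and 84.2% of its intron windows occur elsewhere.

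**Figure D5:**
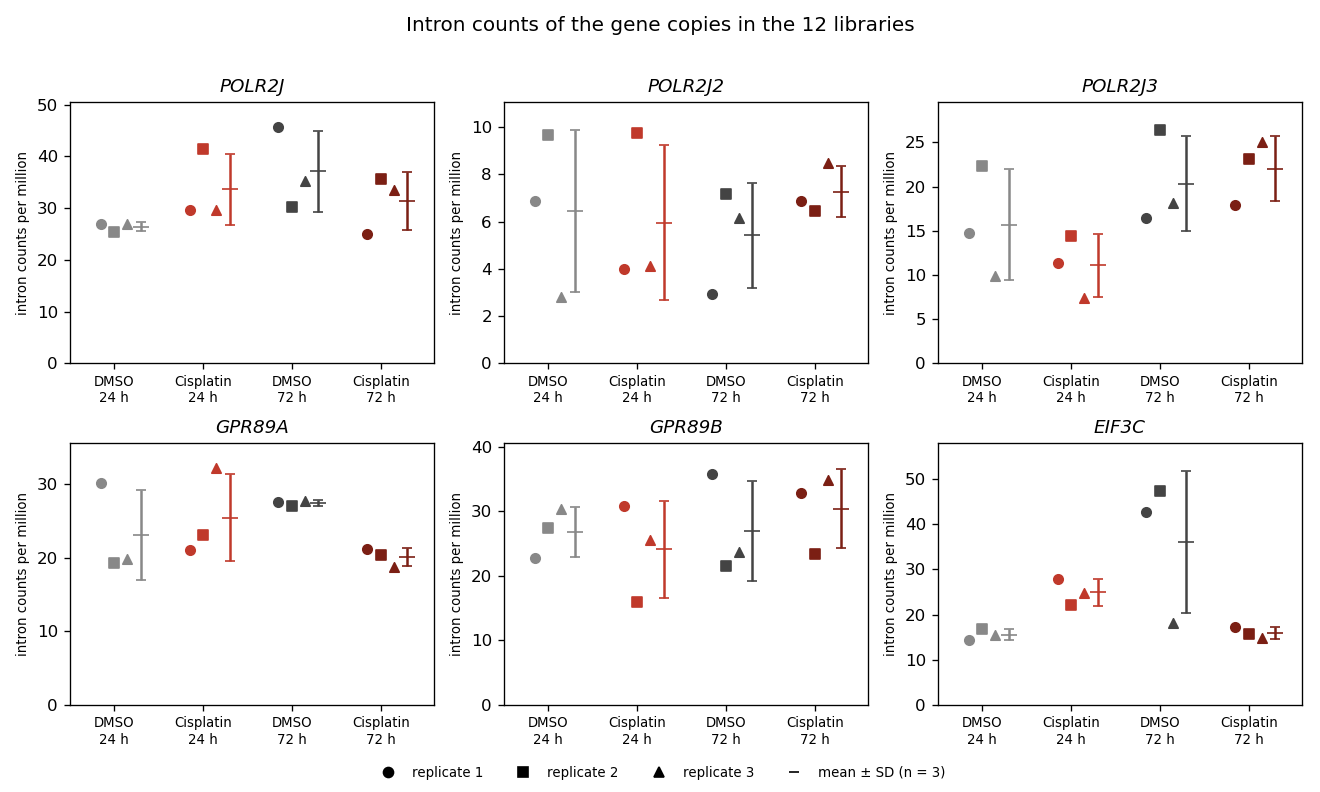
Intron CPM (vertical axis, starting at 0) of the 6 copies in the 12 libraries, by group, with the mean and SD (n = 3) beside the points. In EIF3C replicates 1 and 2 of DMSO at 72 h stand at 42.8 and 47.3, above the other 10 libraries, and the DMSO and cisplatin groups of POLR2J3 overlap at both times.

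The study compared exons with introns as a ratio per gene. The ratio of exon to intron counts of POLR2J3 was 1.15 ± 0.608 in DMSO and 0.802 ± 0.690 with cisplatin at 24 h, and 1.92 ± 0.0887 and 0.307 ± 0.0725 at 72 h (SD, n = 3). That of GPR89A was 14.1 ± 4.13 and 8.14 ± 1.61 at 24 h and 10.7 ± 2.06 and 6.92 ± 0.755 at 72 h. GPR89B had ratios of 2.18 ± 0.0750 and 2.62 ± 1.12 at 24 h and 2.44 ± 0.251 and 1.94 ± 0.543 at 72 h. On the log2 scale it differed with cisplatin by 0.22 at 24 h (standard error 0.21, adjusted p = 0.563) and by -0.32 at 72 h (standard error 0.17, adjusted p = 0.210) in the logistic model of exon against intron counts. Without cisplatin replicate 2 the 72 h value of GPR89B was -0.56 (adjusted p = 0.0321 in the logistic model). POLR2J held ratios between 25.4 ± 3.63 and 30.1 ± 5.33. POLR2J and GPR89B, the copies with a ratio that were not chosen on these comparisons, did not pass in that model at either time with all libraries, beside 11.5% of 9678 genes at 24 h and 11.4% of 10011 genes at 72 h.

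EIF3C had a ratio of 55.4 ± 4.35 in DMSO and 35.9 ± 4.37 with cisplatin at 24 h, and 29.1 ± 16.6 and 50.6 ± 1.68 at 72 h (SD, n = 3). With time its ratio differed on the log2 scale by -1.06 in DMSO (standard error 0.19) and by 0.51 in cisplatin (standard error 0.17). These values rest on the libraries on which EIF3C was chosen and are given without a test. POLR2J and GPR89B did not pass in the logistic model in either time comparison, beside 33.7% of 9739 genes in DMSO and 40.6% of 9818 genes in cisplatin. In cisplatin GPR89B differed by -0.34 (adjusted p = 0.120 in the logistic model), by -0.72 without cisplatin replicate 1 at 24 h (adjusted p = 0.00377) and by -0.59 without cisplatin replicate 2 at 72 h (adjusted p = 0.0129). The logistic model takes each read as an independent draw, so its standard errors leave out the spread between libraries.

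Other genes of the same complexes and places were taken from lists by function or position. Of 10 measured subunits of RNA polymerase II, none passed with cisplatin in exon counts at 24 h or 72 h by edgeR (0 and 1 at an unadjusted p under 0.05), with median log2 changes of 0.01 and -0.04 beside 0.00 and 0.00 over all genes. Of 12 measured eIF3 subunits none passed at either time (0 and 0 at an unadjusted p under 0.05; medians 0.00 and -0.05), nor did any of 19 genes for vesicle proton pumps and ion exchange (0 and 2; medians -0.01 and -0.01). Over time in DMSO, where 65.1% of all genes passed, 7 of the 10 polymerase subunits passed, 1 higher and 6 lower, the lowest being POLR2L at -1.05 and POLR2D at -0.71, a subunit shared by all 3 nuclear RNA polymerases and a stalk subunit of polymerase II, against POLR2J at 0.28. Of the 12 eIF3 subunits 7 rose and 4 fell, among them EIF3D, at 0.65, and EIF3B, at -0.59. Among the 19 proton pump and ion genes 7 rose and 5 fell, led by ATP6V1G1 at 0.65.

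In cisplatin, time moved 8 polymerase subunits (1 higher, 7 lower), 8 eIF3 subunits (4 higher, 4 lower) and 13 proton pump and ion genes (7 higher, 6 lower). Over all genes 63.5% passed in that comparison. Of 27 measured genes from other near-identical copies, none passed with cisplatin in exon counts at either time by edgeR (3 and 4 at an unadjusted p under 0.05; medians 0.00 and -0.05). With time 17 of these 27 passed in DMSO (4 higher, 13 lower) and 19 in cisplatin (4 higher, 15 lower). HSPA1A, a heat shock gene with a near-identical copy, fell by 2.20 in DMSO and by 2.34 in cisplatin, and GTF2IRD2B rose by 1.02 and 1.62.

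Genes beside the copies on the chromosome were examined too. None of 9 measured neighbours of the POLR2J copies, 14 of the GPR89 copies and 14 of the EIF3C copies passed with cisplatin in exon counts at 24 h (2, 1 and 0 at an unadjusted p under 0.05) or 72 h (1, 0 and 1) by edgeR. At 72 h the median log2 change was 0.01 for the POLR2J neighbours, -0.06 for the GPR89 neighbours and -0.03 for the EIF3C neighbours. LRWD1, which overlaps POLR2J on the other strand, differed by 0.04 at 24 h and by 0.01 at 72 h with cisplatin (standard error 0.07 each). With time in DMSO LRWD1 fell by 0.23 (adjusted p = 0.00526 from edgeR) while POLR2J rose. With time in DMSO 3 of the 9 POLR2J neighbours, 12 of the 14 GPR89 neighbours and 7 of the 14 EIF3C neighbours passed, and in cisplatin 4, 11 and 5, beside 65.1% and 63.5% of all genes. NUDT17, beside GPR89A, rose by 1.39 in DMSO and by 1.31 in cisplatin, and NUPR1, a stress response gene beside the EIF3C copies, rose by 3.55 and 3.44.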

How the data were processed

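The deposited file held raw exon and intron counts per gene for the 12 libraries. Per the labels and the study's methods, the authors trimmed reads with Trim Galore 0.6.0, checked them with FastQC 0.11.8, aligned them to GRCh38 with HISAT2 2.1.0 and counted fragments per exon and per intron of Ensembl release 98 with HTSeq (intersection-strict mode for exons, union mode for introns). Reads that match several places may be left out by such counting, which lowers the counts of near-identical copies; the options for multiple matches and strand are not given in the sources used here. Genes were filtered with filterByExpr and fitted over the 12 libraries with TMM factors in edgeR 4.0.16 (quasi-likelihood test, Benjamini-Hochberg adjustment, R 4.3.3), for exon counts, intron counts and exon counts with each family replaced by its sum. The exon to intron ratio was fitted with a logistic model over the 6 libraries compared. Shares were compared with exact permutation tests and correlations with 100000 permutations. Alternatives were DESeq2 1.42.0, other scalings and filters, a term for replicate number and leaving out each library. The edgeR and logistic fits were also run on simulated counts with changes of known size, and the outcome is not given here. For the logistic model the simulated reads were independent, so that run could not show an effect of spread between libraries. Windows of 100 bases were searched for on both strands of 194 genome sequences and in GENCODE release 44 transcripts. The genes named are all copies, the 3 genes most like POLR2J3, GPR89A and EIF3C, neighbours, and up to 2 genes with the largest changes per list and direction. The members and lists were chosen with earlier results of these data known.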

Additional observations from a re-analysis of the deposited data

Results flagged for a closer look

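The effect of cisplatin on EIF3C intron counts at 72 h minus that at 24 h was -1.80 on the log2 scale, and all 3 cisplatin libraries lay above the DMSO libraries at 24 h and below them at 72 h, where 8.94% and 13.4% of all genes had intron groups that did not overlap. It stands here because the differences between the cisplatin and DMSO groups at the 2 times went in opposite directions. EIF3C was chosen for its change with cisplatin in these libraries, so the p-value of the edgeR interaction, fitted over all genes, is left out here, and DMSO replicate 3 at 72 h, at 18.1 CPM, lay far below its 2 fellow replicates.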

How the results depend on the processing

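Counts of copies in cisplatin against DMSO include POLR2J3, GPR89A and EIF3C, which were chosen on these comparisons, and the time comparisons share those libraries, so these counts describe only how the settings move them. The 19 values of the copies and family sums that passed kept their direction under all alternatives run, and 22 of the 57 that did not pass changed sign under at least 1. Apart from POLR2J with time in DMSO, those that passed were chosen copies or sums that hold one. The EIF3C sum repeats EIF3C, so a kept direction is a description only. In cisplatin against DMSO at 24 h, 0 copies passed in exon counts, 2 without a filter on low counts, and 0 to 1 with each library left out (1 without DMSO replicate 3); for the family sums it was 0 and, without a filter, 1. At 72 h, 2 copies passed in exon counts, both chosen on that comparison, so this is no test of them. With a library left out 0 to 2 passed. That count fell without DMSO replicate 2 or cisplatin replicate 1 or 3. Over all genes the 72 h exon count of 3 became 79 in DESeq2, 154 without a filter and 0 to 72 with a library left out, and that of 0 at 24 h became 7 without a filter. DESeq2 gave no adjusted p to POLR2J3, GPR89A and the GPR89 sum at 72 h, so no count is given for it. With time in DMSO, 1 copy passed in exon counts, and 2 without a filter, with a replicate block or with only the 6 libraries compared, as against 1 to 2 with a library left out; the sums gave 1 to 2. In intron counts at 72 h 0 copies passed, but 1 without a filter, 1 with only the 6 libraries compared and 0 to 1 with a library left out. Over time in DMSO 1 to 2 passed and with time in cisplatin 0 to 1, and 2 with library totals or only the 6 libraries compared. For the exon to intron ratio, 3 copies passed with cisplatin at 24 h and 3 at 72 h. The edgeR test of the ratio gave 0 and 1, a dispersion per gene 0 and 0, and leaving out a library 0 to 3 and 2 to 4. Over all genes the ratio calls went from 1110 and 1144 to 0 and 2 in edgeR and to 0 and 0 with a dispersion per gene. With a library left out they ran from 245 to 1555 at 24 h (245 without cisplatin replicate 2, 503 without DMSO replicate 2) and from 729 to 1138 at 72 h (729 without DMSO replicate 1). In the time comparisons they went from 3278 and 3984 to 1075 and 1118 in edgeR, and to 64 and 97 with a dispersion per gene. In intron counts the 4 calls at 72 h became 2 in DESeq2, 19 without a filter and 26 with only the 6 libraries compared, and the 2 at 24 h became 0 in DESeq2 and with the replicate block. Single libraries moved them too, to 9 at 72 h without DMSO replicate 3 and 7 without DMSO replicate 1. At 24 h they became 0 without DMSO replicate 1 or cisplatin replicate 1 or 2. For the ratio of the copies, 1 passed over time in DMSO, 0 with a dispersion per gene, 2 with the minimum of 10 counts and 1 to 2 with a library left out. With time in cisplatin 1 copy passed in the ratio, 0 in the edgeR test, 0 with a dispersion per gene and 1 to 2 with a library left out. The cause of these differences was not tested.

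The share of GPR89A with time in DMSO ran from -6.14 to 1.02 percentage points with a library left out (GPR89B from -1.02 to 6.14), turning without DMSO replicate 1 at 72 h, and that of POLR2J3 with time in cisplatin from -0.404 to 0.0939 (POLR2J from -0.0939 to 0.404), turning without cisplatin replicate 3 at 24 h. Without the 2 farthest libraries the correlation of deviations was -0.73 for the GPR89 copies and 0.79 for POLR2J and POLR2J3. The replicate numbers did not pair the libraries. Over all genes the same-numbered libraries of 2 groups had mean correlations of -0.02, -0.01, 0.02 and 0.08 of their deviations in the 4 comparisons, none above 0.098, and in 5 of 12 rankings (3 libraries in each of the 4 comparisons) a library correlated best with its own number. With the replicate block no other count of copies moved by over 1.5 times.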
